A study of Drosophila melanogaster with 12 samples.

Results

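Whole Drosophila melanogaster labelled as S284Y mutants of dU2AF50, the large subunit of a splicing factor, were compared with wild-type (WT) flies, both grown at 25C, the temperature the labels call permissive. The comparison takes the 3 arrays titled S284Y 25C and the 3 titled WT 25C, 6 of the 12 arrays in the series, each hybridised with total RNA of 5 males and 5 females. The other 6 arrays, 3 of S284Y and 3 of WT flies at 30C, the restrictive temperature, shared the estimate of the spread and provided a second comparison of the genotypes. The titles set the groups, because the descriptions of the WT 30C arrays name 25C. The labels give no age, no further allele and no genetic background of either stock, so the mutation and other differences between the stocks cannot be told apart. Nothing in the labels says that the replicates came from separate pools of flies, so the p-values measure only the spread between these arrays, which may be technical.

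U2AF is a dimer that marks the 3′ end of an intron before splicing. Its large subunit, the product of U2af50 in flies, binds the pyrimidine-rich tract upstream of the splice site, its small subunit, the product of U2af38, contacts the terminal AG, and together they help the U2 snRNP to bind the branch point. The arrays measured the amount of RNA per probe set and cannot show whether a transcript was spliced.

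Transcripts of the mutated factor were at similar levels in both genotypes. Signals of U2af50, given throughout in the order of arrays 1, 2 and 3 of each group, were 4743, 3723 and 6198 in S284Y, against 4095, 4052 and 3792 in WT. Those of U2af38 were 3227, 2289.7 and 3773 in S284Y, against 2785, 2558 and 2984 in WT. The groups overlapped for both genes, with log2 fold changes of S284Y over WT of 0.27 (adjusted p = 0.531) for U2af50 and 0.13 (adjusted p = 0.802) for U2af38. A substituted residue need not change the amount of a transcript, so these levels do not check the labels. Fold changes are on the scale of log2(signal + 16), and p-values are from limma over all 13966 tested probe sets with Benjamini-Hochberg adjustment and a threshold of 0.05. None of 24 measured early spliceosome genes passed, against 0.323% of all 10844 genes higher and 0.507% lower, and their median log2 fold change was 0.18 beside -0.007 over all genes. The lowest adjusted p among them belonged to Phf5a, a subunit of the branch-point complex SF3b, with signals of 2054, 2067 and 3204 in S284Y, against 1337, 1141 and 1460.3 in WT. The fit gave Phf5a 0.86, adjusted p = 0.148. All 3 S284Y arrays lay above all 3 WT arrays for Phf5a, as was also the case for 7.53% of all probe sets. Among 21 SR and hnRNP genes, which regulate splice-site choice, and 20 genes of mRNA export and nonsense-mediated decay, 0 passed in each list. The female sex-determination splicing factor Sxl fell by its dimmer probe set, singled out after its values were seen, with signals of 1341, 1039.9 and 1024 in S284Y, against 1989, 2194 and 2666 in WT (-1.0, adjusted p = 0.0204). By its brighter probe set Sxl did not pass (-0.7, adjusted p = 0.21). The dimmer one did not pass in array 1 alone (-0.75, adjusted p = 0.095) nor in some fits that left out 1 array, with adjusted p of 0.0501, 0.0944 and 0.127 with WT 25C array 1, 2 or 3 dropped.

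Arrays 2 and 3 of S284Y at 25C stood apart from the other 10. Pearson's correlation of log2 values between S284Y 25C array 1 and the 3 WT 25C arrays was 0.936 to 0.939, above its correlation of 0.887 and 0.856 with arrays 2 and 3 of its own group. In array 3, 1350 probe sets lay more than 2-fold beyond all other 11 arrays, and in array 2, 639 did, against 27 to 79 in each of the other arrays. The added bacterial and phage control transcripts (9 probe sets) were compared with their WT 25C mean. Their median was 5.9 times that mean in array 2 and 1.88 times in array 3, against 0.64 to 1.16 times in the other arrays. Array 3 also differed by gene span: its median log2 difference from the WT 25C mean was 0.50 in the bin of shortest genes (median span 913 bases; 5 bins of nearly equal size) and -0.45 in the bin with a median span of 5969 bases, while S284Y array 1 stayed between -0.02 and 0.02 in all 5 bins. The ratio of the 3′ to the 5′ probe set of the fly gene GAPDH was 5.06 in array 2 and 3.38 in array 3, against 2.86 in array 1 and 3.06 to 3.3 in the WT 25C arrays, and that of eIF4a was 3.93 and 5.32, against 3.46 in array 1 and 3.15 to 3.66 in WT 25C. These ratios did not set both arrays apart from all others: eIF4a stood at 4.11 to 4.37 in the S284Y 30C arrays, above array 2, and the actin ratio was 2.25 in array 2 and 2.81 in array 3, against 2.04 in array 1 and 2.45 to 2.73 in WT 25C. Of the called probe sets with a known span, 17, 10, 3, 2 and 3 of those higher in S284Y lay in the 5 bins in order of span, and 11, 12, 12, 10 and 14 of those lower. What part these differences had in the calls was not tested. Results are therefore also given from array 1 alone, a fit in which the lone S284Y 25C array is assumed to vary like the other groups.

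**Figure D1:**
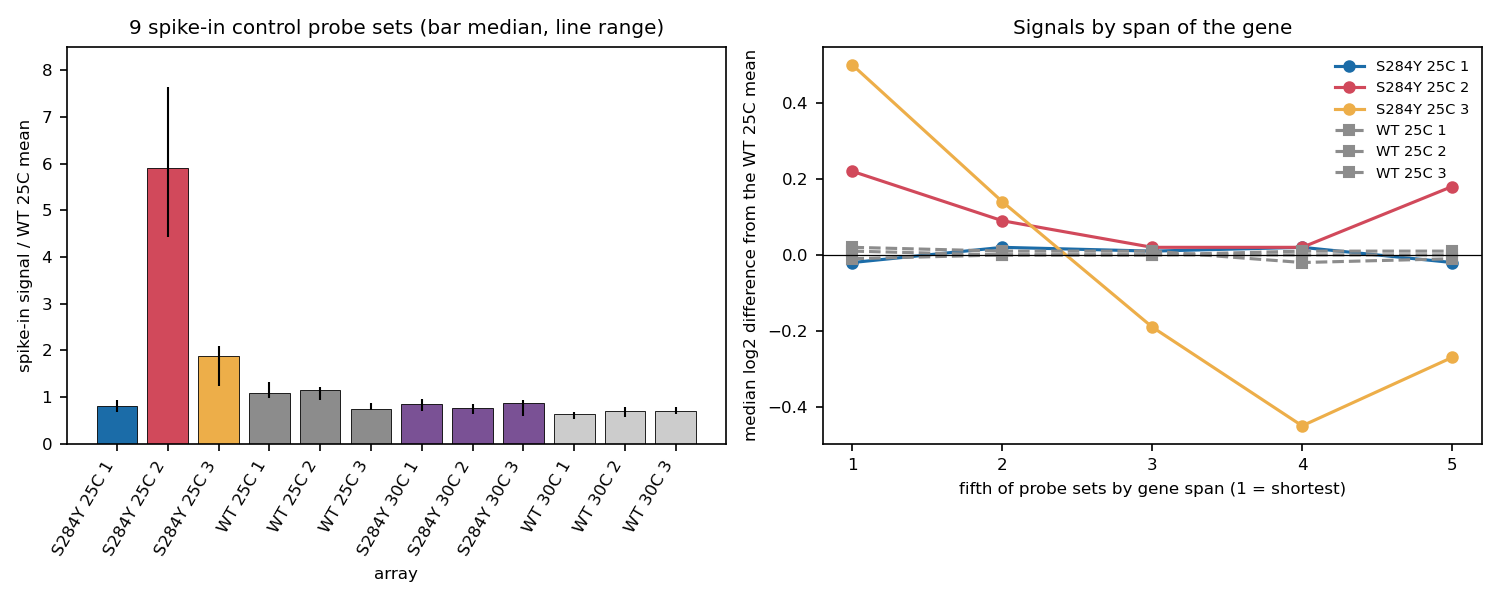
Left, median signal of 9 spike-in control probe sets in each of the 12 arrays as a ratio to the WT 25C mean (bars; lines run from the lowest to the highest of the 9 ratios). Right, median difference of log2(signal + 16) from the WT 25C mean in 5 bins of probe sets ordered by the span of the gene, for the 3 S284Y and 3 WT arrays at 25C. Array 2 has the tallest bar, 5.9, and array 3 is at 0.50 for the shortest genes and -0.45 in the next to last bin, while S284Y array 1 and the WT arrays lie close to 0.

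In all, 110 of 13966 probe sets (0.788%) passed at 25C, 44 higher (0.315%) and 66 lower (0.473%) in S284Y. The S284Y and WT values did not overlap for any of the 110, as for 14.7% of all probe sets (7.53% higher and 7.15% lower). All 110 kept their direction in array 1 alone, and 65 of them passed in that fit, which called 165 probe sets (1.18%). The kept direction follows from the lack of overlap, and array 1 is among the arrays that made the calls. Neither the direction nor the count of 65 is therefore an independent check. The size of the difference in array 1 was as a median 0.88 times the mean difference of arrays 2 and 3. It was larger than that mean for 43 probe sets and under 0.5 times as large for 5. Leaving out array 1 in place of the other pair gave 885 calls (6.34%), among them all 110. Of the 110, 41 passed in all 12 fits that left out 1 array, 18 higher and 23 lower. Dropping S284Y 25C array 3 gave 302 calls, dropping WT 25C array 1, 2 or 3 gave 53, 52 and 48, and the 6 compared arrays on their own gave 17. A single gene was attached to 95 of the 110, and 36 of these are known by a CG number only, 14 higher and 22 lower. The share of such names among all genes is not given here, so this count only describes the calls.

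**Figure D2:**
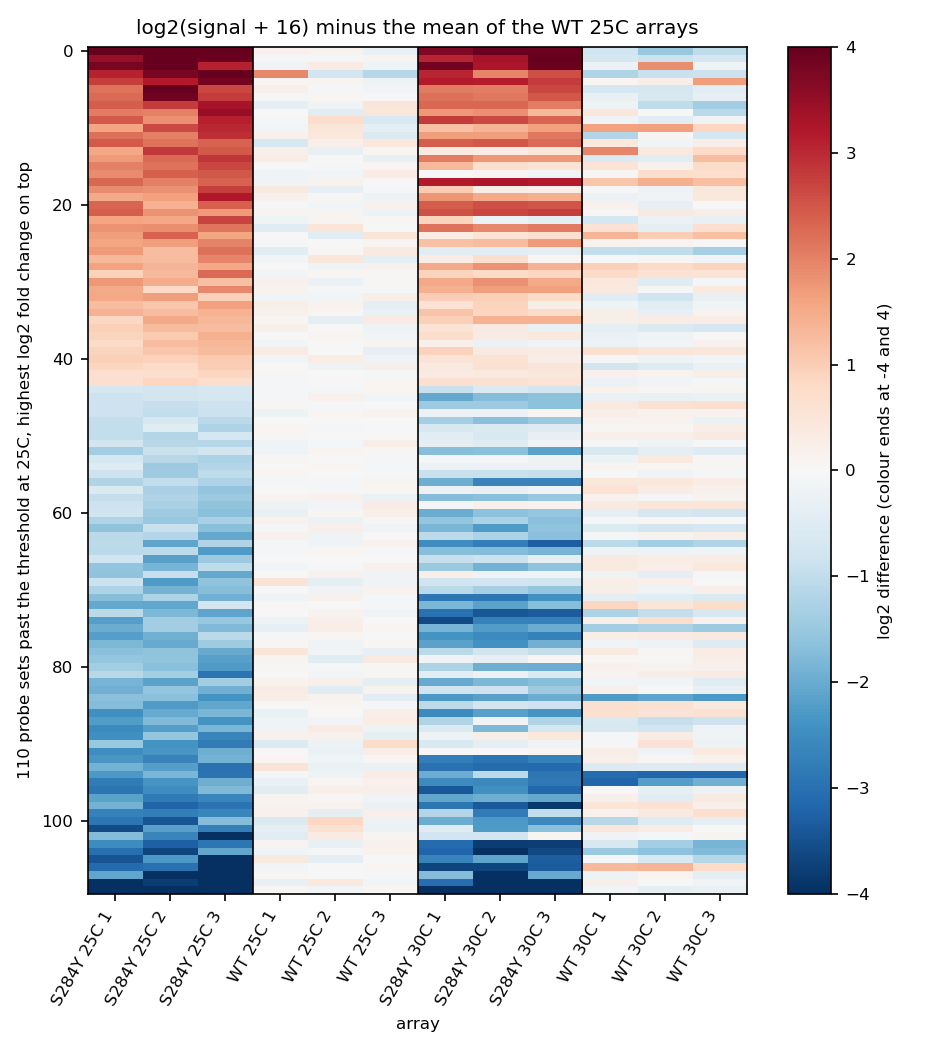
Each row is 1 of the 110 probe sets past the threshold at 25C, ordered from the highest to the lowest log2 fold change of S284Y over WT, and each column is 1 of the 12 arrays; colour gives log2(signal + 16) minus the mean of the WT 25C arrays (red higher, blue lower). S284Y array 1 has the same colour as arrays 2 and 3 in all 110 rows, which follows from the lack of overlap between the groups. Many rows turn pale in the S284Y 30C arrays.

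Lysozyme transcripts, most of which code for digestive enzymes of the fly midgut that cut bacterial cell walls, had the largest increases in S284Y. Of 7 measured lysozyme genes, 5 rose, against 0.323% of all genes. LysP gave signals of 1425, 1865 and 2601 in S284Y, against 195, 229 and 356 in WT, with no overlap. Its log2 fold change was 2.84 ± 0.348 (SE), adjusted p = 0.00172, and array 1 alone gave 2.43, adjusted p = 0.0278. LysC, the highest of all genes, had signals of 40237, 93677 and 43284 in S284Y, against 2458, 2389.8 and 1772 in WT (4.64, adjusted p = 6.4e-06; array 1 alone 4.19, adjusted p = 1.8e-05). Array 2 read highest in S284Y for LysB, LysC, LysD and LysE, close relatives whose probe sets may share signal, and array 1 read lowest of the 3 for each of these genes and for LysP. The highest signal of any tested probe set was 241444 in array 2, against 56032 in array 1 and 74540 in array 3. With quantile normalization, LysC stood at 4.14, LysD at 3.71, LysB at 2.42, LysE at 2.52 and LysP at 2.92, and each kept its call. The part of the wider range of array 2 in these signals was not tested. The median of the 7 lysozyme genes over the WT 25C mean was 2.26 in array 1, 3.85 in array 2 and 2.80 in array 3. More or less RNA per cell and more or fewer cells of a type cannot be told apart in whole flies, here and in the results that follow.

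Gut proteases did not move as a group. Of 28 measured, 1 rose and 1 fell, against 0.323% and 0.507% of all genes. Their median was 0.27 (-0.06, 0.01 and 0.57 in arrays 1, 2 and 3). The one that rose was Jon66Ci, a serine protease of the Jonah family, at 1451, 2418 and 3097 in S284Y, against 637, 87 and 62.5 in WT. Jon66Ci changed by 3.68 ± 0.639 (SE), adjusted p = 0.0171. WT array 1 stood well above the other WT arrays, and the gene did not pass in S284Y array 1 alone (3.07, adjusted p = 0.182) nor in some fits that left out 1 array, with adjusted p of 0.0518 with S284Y 25C array 2 dropped and 0.0982 and 0.0922 with WT 25C array 2 or 3 dropped. The serine protease gene Ser12 fell, with 47.2, 123 and 27 in S284Y, against 864, 514 and 682 in WT (-3.25 ± 0.497 (SE), adjusted p = 0.00691), and passed in array 1 alone (-3.44, adjusted p = 0.0125). Signals of the 4 measured midgut markers of 6 listed, none of them at 0, summed to 111738 to 288982 in S284Y and 54635 to 82661 in WT. With LysC taken out of the sum the ranges overlapped, 71501 to 195305 in S284Y and 52863 to 80271 in WT, and of these 3 markers 0 passed. The part of midgut content in the lysozyme result was not tested.

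**Figure D3:**
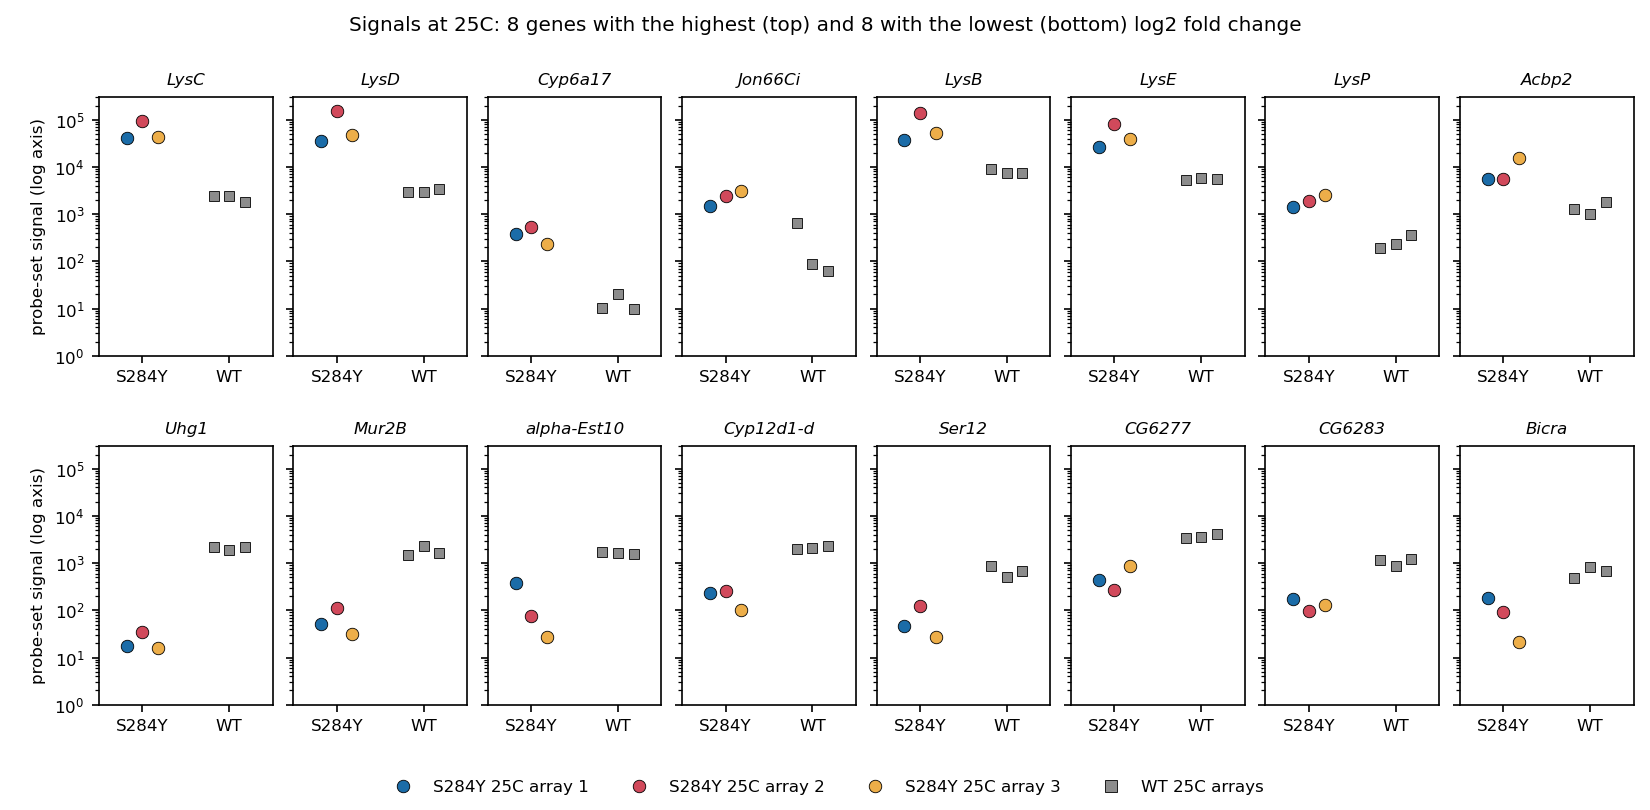
Probe-set signals at 25C (log axis) of the 8 named genes with the highest and the 8 with the lowest log2 fold change; each point is 1 array, with the 3 S284Y arrays as coloured circles on the left and the 3 WT arrays as grey squares on the right. The 16 genes were picked among those whose S284Y and WT arrays do not overlap. S284Y array 1 therefore lies on the same side of WT as arrays 2 and 3 in each by construction.

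Enzymes that digest sugars lay lower in S284Y as a median, and lowest in array 1. Of 15 measured, 2 fell and 0 rose, against 0.507% and 0.323% of all genes. A negative log2 fold change was seen in 13, and the median was -0.60 (-1.06, -0.59 and -0.31 in arrays 1, 2 and 3). In array 1 alone 4 of the 15 fell, against 0.913% of all genes, and at 30C 8 of the 15 fell, against 1.29% of all genes. The maltase gene Mal-A1 had signals of 3686, 4625 and 3402 in S284Y, against 7192, 7140.2 and 7320.4 in WT. Mal-A1 changed by -0.9 ± 0.171 (SE), adjusted p = 0.0269. The glucosidase gene tobi, whose transcript is a target of brain insulin-like peptides and dietary protein, had 289.6, 522 and 477 in S284Y, against 1198, 1593 and 1380.3 in WT. tobi changed by -1.69 ± 0.314 (SE), adjusted p = 0.024. For both genes the 3 S284Y arrays lay below all WT arrays, and both passed in array 1 alone (-0.97, adjusted p = 0.0198 for Mal-A1 and -2.19, adjusted p = 0.013 for tobi). Neither kept its call when some arrays were left out, with adjusted p for Mal-A1 of 0.118, 0.112 and 0.128 with WT 25C array 1, 2 or 3 dropped, 0.051 with S284Y 30C array 3 dropped, and 0.0518 with WT 30C array 2 dropped. For tobi they were 0.0758, 0.127 and 0.121 with WT 25C array 1, 2 or 3 dropped.

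Genes of the lipase and esterase list moved in both directions, 2 of 21 higher and 4 lower, against 0.323% and 0.507% of all genes. CG6277, CG6283, alpha-Est10 and CG5162 fell. CG6277 was at 438, 274 and 854 in S284Y, against 3352, 3574 and 4069 in WT (-2.92 ± 0.428 (SE), adjusted p = 0.00558). CG6283 was at 171, 96.7 and 130.5 in S284Y, against 1145, 864 and 1203 in WT. CG6283 changed by -2.88 ± 0.392 (SE), adjusted p = 0.0033. In contrast CG6295 rose, with 13048, 14228 and 8776 in S284Y, against 4150.2, 4171 and 5256 in WT. CG6295 changed by 1.38 ± 0.202 (SE), adjusted p = 0.00558. These 3 genes lie close together on chromosome arm 3R among the measured genes. CG6283 is next to CG6277, CG17192 is next to CG6295, and 1 gene, CG17191, lies between the pairs. CG17192, singled out after its values were seen, rose (0.88, adjusted p = 0.0346), CG17191 did not pass (0.49, adjusted p = 0.693), and the 2 genes on the outer sides, CG6296 (-1.15, adjusted p = 0.35) and CG6271 (-1.36, adjusted p = 0.332), did not pass. CG6295, CG6283 and CG6277 passed in array 1 alone and in all 12 fits that left out 1 array. CG17192 did not pass in array 1 alone (0.85, adjusted p = 0.0815) nor in some fits that left out 1 array, with adjusted p of 0.153, 0.172 and 0.0599 with WT 25C array 1, 2 or 3 dropped, 0.0598, 0.0641 and 0.0603 with S284Y 30C array 1, 2 or 3 dropped, and 0.0714 with WT 30C array 2 dropped.

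Another lipase gene that rose was mag, which digests triacylglycerol and cholesterol esters in the gut, at 3097, 3889 and 3809 in S284Y, against 1839, 1588 and 1394 in WT. mag changed by 1.16 ± 0.216 (SE), adjusted p = 0.024. It did not pass in array 1 alone (0.95, adjusted p = 0.155) nor in some fits that left out 1 array, with adjusted p of 0.0611 with S284Y 25C array 2 dropped and 0.0625, 0.109 and 0.138 with WT 25C array 1, 2 or 3 dropped. The carboxylesterase gene alpha-Est10 showed the widest spread among the S284Y arrays of these genes, at 382, 75.6 and 26.7 in S284Y, against 1724, 1634 and 1581 in WT. alpha-Est10 changed by -3.84 ± 0.748 (SE), adjusted p = 0.031. Array 1 was the highest of the 3 and array 3 the lowest, and with arrays 2 and 3 left out alpha-Est10 did not pass (-2.06, adjusted p = 0.306). Other fits that ended its call gave adjusted p of 0.0838 with S284Y 25C array 2 dropped, 0.129, 0.122 and 0.127 with WT 25C array 1, 2 or 3 dropped, and 0.0599, 0.0582 and 0.0587 with WT 30C array 1, 2 or 3 dropped. CG5162, named because it completes the count, fell least of the 4 (-1.0, adjusted p = 0.0394) and passed in array 1 alone (-1.38, adjusted p = 0.00649), but not in 9 of the 12 fits without 1 array, with adjusted p of 0.0533 with S284Y 25C array 2 dropped, 0.0974, 0.173 and 0.178 with WT 25C array 1, 2 or 3 dropped, 0.0649 and 0.0642 with S284Y 30C array 1 or 2 dropped, and 0.0749, 0.0741 and 0.0769 with WT 30C array 1, 2 or 3 dropped.

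Of 27 genes for the mucus and chitin layers that line the gut, 3 fell and 0 rose, against 0.507% and 0.323% of all genes. As a list they did not move, with a median of -0.07 and a positive log2 fold change in 13 of the 27. Mur2B, a mucin-related gene, had 52.3, 114 and 31.7 in S284Y, against 1469.9, 2339 and 1667 in WT. Mur2B changed by -4.59 ± 0.497 (SE), adjusted p = 0.000629. Mur2B stood in array 1 alone at -4.72, adjusted p = 0.0024. The mucin gene Muc68D had 1337, 1245 and 667 in S284Y, against 3162, 2539.8 and 2777 in WT (-1.43 ± 0.254 (SE), adjusted p = 0.0197; array 1 alone -1.06, adjusted p = 0.0409). The chitin deacetylase-like gene Cda9 had 40.9, 137 and 86 in S284Y, against 505, 1028 and 570.1 in WT. Cda9 changed by -2.83 ± 0.488 (SE), adjusted p = 0.0171. Cda9 stood in array 1 alone at -3.59, adjusted p = 0.0125. Mur2B was lowest in array 3, Muc68D in array 3 and Cda9 in array 1, and all passed in array 1 alone. The call of Muc68D ended with adjusted p of 0.106, 0.07 and 0.0941 with WT 25C array 1, 2 or 3 dropped. For Cda9 it was 0.102 and 0.0643 with WT 25C array 2 or 3 dropped.

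Detoxification enzymes, which oxidise foreign compounds (cytochromes P450) or conjugate them to glutathione (glutathione transferases), had called members in both directions in each family. Of 83 P450 genes 1 rose and 3 fell, with a median of -0.11, and of 34 glutathione transferase genes 2 rose and 2 fell, with a median of 0.04. Over all genes 0.323% rose and 0.507% fell. Cyp6a17, which in flies takes part in temperature preference, was near the added 16 in WT and well above it in S284Y, at 387, 529 and 235 in S284Y, against 10.2, 20.1 and 9.8 in WT. Cyp6a17 changed by 3.72 ± 0.549 (SE), adjusted p = 0.00563, a value that depends on the added 16, at 4.74 with 1 and 2.48 with 64 added. Cyp6a17 stood in array 1 alone at 3.80, adjusted p = 0.0347. Its neighbour on arm 2R among the measured genes, Cyp6a23, went the other way, at 361, 552 and 421 in S284Y, against 1161, 1758 and 1519 in WT. Cyp6a23 changed by -1.7 ± 0.25 (SE), adjusted p = 0.00558. Cyp6a23 stood in array 1 alone at -1.97, adjusted p = 0.0054. The nearest measured genes on the outer sides of this pair, Cyp6a22 (-0.11, adjusted p = 0.765) and Cyp6a19 (0.10, adjusted p = 0.803), did not pass. Cyp12d1-d, a P450 that insecticides induce, had 229.8, 253 and 104 in S284Y, against 1964, 2139 and 2251 in WT. Cyp12d1-d changed by -3.42 ± 0.298 (SE), adjusted p = 0.000115. Cyp12d1-d stood in array 1 alone at -3.12, adjusted p = 6.2e-05. For these 3 genes each S284Y array lay on the same side of all WT arrays, and each call was kept in all 12 fits without 1 array. Cyp6a13 changed least of the 4 called P450 genes, at 731, 846 and 712 in S284Y, against 1622, 1639.9 and 1804 in WT (-1.13 ± 0.216 (SE), adjusted p = 0.0269), and did not pass in array 1 alone (-1.19, adjusted p = 0.0525) nor in some fits that left out 1 array, with adjusted p of 0.11, 0.109 and 0.145 with WT 25C array 1, 2 or 3 dropped and 0.0608, 0.0625 and 0.0584 with WT 30C array 1, 2 or 3 dropped.

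Among glutathione transferases, GstE1 rose, at 2328, 1941 and 2198 in S284Y, against 263, 476 and 568 in WT (2.33 ± 0.261 (SE), adjusted p = 0.000792). GstD3 also rose, at 2511, 1592 and 3918 in S284Y, against 417, 723 and 283.7 in WT. GstD3 changed by 2.46 ± 0.347 (SE), adjusted p = 0.00437. GstE6 fell, at 987, 1192 and 2149.6 in S284Y, against 4366, 4847 and 4617 in WT (-1.74 ± 0.235 (SE), adjusted p = 0.00322). GstE8 also fell, at 206, 73.2 and 89.9 in S284Y, against 878, 881 and 659.5 in WT. GstE8 changed by -2.67 ± 0.397 (SE), adjusted p = 0.00563. The 3 S284Y values of GstE1 lay close together, whereas GstE6 was highest in array 3 and GstE8 in array 1, and the groups did not overlap for any of the 4 genes. GstE1, GstD3 and GstE6 passed in array 1 alone, GstE8 did not (-1.88, adjusted p = 0.0548), and all 4 were kept in the 12 fits without 1 array. UDP-glycosyltransferases, another detoxification family, had 0 of 33 members past the threshold, and the lowest adjusted p was that of Ugt305A1 (-1.3, adjusted p = 0.222).

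Fat body and lipid genes lay lower as a median of 27 genes (-0.30, with -0.06, -0.20 and -0.35 in arrays 1, 2 and 3). Among them 1 fell and 2 rose, against 0.507% and 0.323% of all genes. Lsp2, a storage protein made by the fat body, had 5434, 3347 and 2679 in S284Y, against 11576, 12660.5 and 10587 in WT (-1.66 ± 0.247 (SE), adjusted p = 0.00569), and its fall was smallest in array 1, which passed alone (-1.09, adjusted p = 0.0403). The desaturase gene Fad2, which acts in the making of female cuticular pheromones, rose evenly in the 3 arrays, at 7596, 7482 and 8165 in S284Y, against 3672, 4865 and 3408 in WT. Fad2 changed by 0.97 ± 0.162 (SE), adjusted p = 0.0131. Fad2 stood in array 1 alone at 0.95, adjusted p = 0.0317. Acbp2, an acyl-CoA-binding protein, had 5497, 5446 and 15158 in S284Y, against 1310.2, 993 and 1816 in WT. Acbp2 changed by 2.51 ± 0.429 (SE), adjusted p = 0.0161. Array 3 stood above the other S284Y arrays for Acbp2, and the gene did not pass in array 1 alone (2.03, adjusted p = 0.0719) nor in some fits that left out 1 array, with adjusted p of 0.0699 and 0.097 with WT 25C array 1 or 2 dropped. The call of Fad2 ended with adjusted p of 0.0796 and 0.0941 with WT 25C array 1 or 3 dropped. Without array 1 the list had 7 members lower and 2 higher, where 4.67% of all genes were lower and 1.77% higher, and in array 1 alone 1 lower and 2 higher, where 0.314% of all genes were higher. The summed signal of 4 fat body markers, none at 0, was 49309 and 55778 in S284Y arrays 1 and 3. It was 254667 in array 2, against 45884 to 62986 in WT. The median log2 fold change of these markers was -0.37, and Lsp2, 1 of the 4, fell in array 2 as well. The high sum of array 2 was therefore not shared by every marker. The part of this sum in the results on fat body genes was not tested.

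The non-coding gene Uhg1, whose introns hold small nucleolar RNAs, had the largest decrease, to 17.8, 34.6 and 15.9 in S284Y, against 2163, 1915 and 2150.2 in WT. Uhg1 changed by -5.78 ± 0.352 (SE), adjusted p = 6.4e-06. Uhg1 stood in array 1 alone at -5.95, adjusted p = 1.8e-05. The S284Y values lie near the added 16, so the value depends on that offset, at -6.53 with 1 and -4.63 with 64 added, and the call was kept in all 12 fits without 1 array. Of 12 genes of small nucleolar RNA hosts and ribosome biogenesis, Uhg1 fell and Nop60B, the fly pseudouridine synthase of H/ACA particles, rose, at 482, 504 and 610.5 in S284Y, against 87.2, 187 and 125 in WT. Nop60B changed by 1.93 ± 0.371 (SE), adjusted p = 0.0294. The S284Y values of Nop60B were close together in all 3 arrays, but it did not pass in array 1 alone (1.80, adjusted p = 0.182) nor in some fits that left out 1 array, with adjusted p of 0.0533 with S284Y 25C array 2 dropped, 0.14 and 0.125 with WT 25C array 1 or 3 dropped, and 0.0566, 0.0581 and 0.0541 with S284Y 30C array 1, 2 or 3 dropped. The nucleolar genes Fib (0.38, adjusted p = 0.326) and Nop56 (0.19, adjusted p = 0.611), both chosen after their values were seen, did not pass.

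Outside these families, Naa80 rose, and stil and Bicra fell, among the largest differences. Naa80, which acetylates the start of actin, had 2086, 1069 and 2171 in S284Y, against 385, 369 and 457 in WT (2.03 ± 0.267 (SE), adjusted p = 0.00289; array 1 alone 2.33, adjusted p = 0.000517), and array 2 was the lowest of the S284Y arrays. The germ-line gene stil, needed for the female germ line, had 809, 500.4 and 589.7 in S284Y, against 3907, 3795 and 3283 in WT. stil changed by -2.53 ± 0.229 (SE), adjusted p = 0.000148. stil stood in array 1 alone at -2.15, adjusted p = 0.00124. Its 3 S284Y values lay far below all WT values. In contrast, 0 of 29 measured ovary and germ-line genes on the list passed, with per-array medians of 0.14, -0.09 and -0.67, and the summed ovary markers (4 measured of 5 listed) were 97779 to 183543 in S284Y and 92480 to 112760 in WT. Bicra, by orthology with a human gene a subunit of a chromatin-remodelling complex, had 184, 90.4 and 21.3 in S284Y, against 475, 809 and 689.7 in WT (-2.83 ± 0.509 (SE), adjusted p = 0.0204), and it did not pass in array 1 alone (-1.72, adjusted p = 0.0674) nor in some fits that left out 1 array, with adjusted p of 0.0546, 0.109 and 0.107 with WT 25C array 1, 2 or 3 dropped.

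Of 25 measured serpin genes, a family of protease inhibitors, 1 fell and 0 rose, against 0.507% and 0.323% of all genes. The one that fell, Spn77Bb, had 1203, 798 and 2699 in S284Y, against 5998, 15759.6 and 7598 in WT. Spn77Bb changed by -2.69 ± 0.419 (SE), adjusted p = 0.00759. Spn77Bb stood in array 1 alone at -2.88, adjusted p = 0.00795. A second, dimmer probe set of Spn77Bb did not pass (-1.60, adjusted p = 0.0651). Among 40 antimicrobial and immune genes 1 rose and 0 fell, against 0.323% and 0.507% of all genes. The one that rose was Drsl5, of the family of the antifungal peptide Drosomycin, at 1643, 1599 and 3594 in S284Y, against 473, 581 and 556 in WT. Drsl5 changed by 1.95 ± 0.37 (SE), adjusted p = 0.0269. It did not pass in array 1 alone (1.59, adjusted p = 0.134) nor in some fits that left out 1 array, with adjusted p of 0.127, 0.102 and 0.119 with WT 25C array 1, 2 or 3 dropped and 0.0514 with WT 30C array 3 dropped. The median of the immune list was -0.03 in array 1, 0.32 in array 2 and 0.71 in array 3, and without array 1 the list had 7 members higher and 2 lower, where 1.77% of all genes were higher and 4.67% lower.

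The genes wts, mav, Dad, sina and Abl lie outside the rule for named genes and were chosen after their values and directions were seen, so they are described singly and say nothing of signalling genes as a group. The kinase gene wts of the Hippo growth-control pathway had 167, 329 and 146 in S284Y, against 1126, 1113 and 777 in WT. wts changed by -2.22 ± 0.309 (SE), adjusted p = 0.00402. wts stood in array 1 alone at -2.46, adjusted p = 0.00169. The TGF-beta ligand gene mav had 570.5, 538 and 364 in S284Y, against 1798, 1232 and 2149 in WT (-1.77 ± 0.237 (SE), adjusted p = 0.00322). Dad, the inhibitory Smad of the Dpp pathway, had 267, 280.4 and 209 in S284Y, against 1238, 797 and 708 in WT. Dad changed by -1.76 ± 0.262 (SE), adjusted p = 0.00563. For wts, mav and Dad the 3 S284Y arrays lay below all WT arrays, the calls were kept in all 12 fits without 1 array, and each passed in array 1 alone (-1.53, adjusted p = 0.0132 for mav and -1.67, adjusted p = 0.0223 for Dad). The ubiquitin ligase gene sina had 1186, 445 and 752 in S284Y, against 2075, 2059 and 2112 in WT (-1.48 ± 0.281 (SE), adjusted p = 0.0269). The tyrosine kinase gene Abl had 179, 91.4 and 64.8 in S284Y, against 373, 468 and 929.8 in WT (-2.24 ± 0.422 (SE), adjusted p = 0.0258). Neither passed in array 1 alone (-0.80, adjusted p = 0.0808 for sina and -1.53, adjusted p = 0.208 for Abl). Other fits that ended these calls gave adjusted p for sina of 0.113, 0.109 and 0.127 with WT 25C array 1, 2 or 3 dropped and 0.0535, 0.0536 and 0.0555 with WT 30C array 1, 2 or 3 dropped. For Abl they were 0.0591 with S284Y 25C array 2 dropped and 0.0962 and 0.142 with WT 25C array 2 or 3 dropped.

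Different probe sets of a gene disagreed in some of these cases. The adenylyl cyclase gene rut fell by 1 probe set (-1.52, adjusted p = 0.0186) and not by its brighter one (-0.12, adjusted p = 0.877). The netrin receptor gene unc-5 fell by 1 probe set (-2.13, adjusted p = 0.0225), while its 2 brighter probe sets gave 1.4 (adjusted p = 0.223) and 0.14 (0.929). For rhea, the gene of the adhesion protein talin, 1 probe set rose, at 2336, 1516 and 1423 in S284Y, against 457, 461 and 357 in WT (1.98 ± 0.22 (SE), adjusted p = 0.000781; array 1 alone 2.42, adjusted p = 0.000156), and the dimmer one gave -0.71 (adjusted p = 0.336). The arrays do not show which of the probe sets of rut, unc-5 or rhea follows the gene's whole transcript level. The call of rut ended with adjusted p of 0.0789, 0.109 and 0.0695 with WT 25C array 1, 2 or 3 dropped. That of unc-5 ended in array 1 alone (-2.24, adjusted p = 0.11) and with 0.0706, 0.0886 and 0.123 with WT 25C array 1, 2 or 3 dropped.

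Genes known by a CG number made up 9 of the 30 with the largest changes, CG6277 and CG6283 included. This count too lacks the share of such names among all genes. CG4570 rose evenly, at 2472, 2035 and 2599 in S284Y, against 449.5, 551 and 491 in WT. CG4570 changed by 2.21 ± 0.167 (SE), adjusted p = 3.4e-05. CG4570 stood in array 1 alone at 2.28, adjusted p = 5.4e-05. CG11825 was at 781, 689.6 and 1341 in S284Y, against 181, 216 and 99.5 in WT (2.39 ± 0.417 (SE), adjusted p = 0.0171). CG18343 was at 1522, 1644 and 4867 in S284Y, against 587, 530.4 and 441 in WT (2.12 ± 0.369 (SE), adjusted p = 0.0171). CG42521 was at 252, 547 and 716 in S284Y, against 67.4, 109 and 54.2 in WT (2.41 ± 0.441 (SE), adjusted p = 0.0225). CG11825, CG18343 and CG42521 read highest in array 3. CG18343 passed in array 1 alone (1.53, adjusted p = 0.0223), whereas CG11825 (2.20, adjusted p = 0.118) and CG42521 (1.57, adjusted p = 0.287) did not. CG7408 was at 41.1, 38.6 and 45 in S284Y, against 398, 269.7 and 409.5 in WT (-2.68 ± 0.465 (SE), adjusted p = 0.0171). CG18088 was at 71.2, 54.4 and 24.9 in S284Y, against 443, 253 and 254 in WT (-2.35 ± 0.392 (SE), adjusted p = 0.0131). CG4440 was at 123, 178 and 72.5 in S284Y, against 629.8, 576 and 824 in WT (-2.36 ± 0.47 (SE), adjusted p = 0.0354). CG7408, CG18088 and CG4440 fell and did not pass in array 1 alone (adjusted p = 0.0914, 0.142 and 0.138). Of these genes CG4570 was kept in all 12 fits without 1 array. For the others the fits that ended the call gave adjusted p as follows. Those of CG11825 were 0.0593 and 0.0951 with WT 25C array 1 or 3 dropped. Those of CG18343 were 0.0591, 0.0787 and 0.0951 with WT 25C array 1, 2 or 3 dropped. Those of CG42521 were 0.0562 with S284Y 25C array 2 dropped and 0.0974 and 0.123 with WT 25C array 1 or 3 dropped. Those of CG7408 were 0.082 and 0.0951 with WT 25C array 1 or 3 dropped. Those of CG18088 were 0.0706 with WT 25C array 1 dropped. Those of CG4440 were 0.0554 with S284Y 25C array 3 dropped, 0.127, 0.109 and 0.177 with WT 25C array 1, 2 or 3 dropped, 0.0623 with S284Y 30C array 1 dropped, and 0.0662, 0.0674 and 0.0661 with WT 30C array 1, 2 or 3 dropped.

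Of the 38 gene lists described, 26 had 0 members past the threshold by limma, while 13.9% of all probe sets had an unadjusted p under 0.05. The medians of several of these lists differed between array 1 and arrays 2 or 3. Cytoplasmic ribosomal proteins (36 genes) had a median of 0.37, with -0.02 in array 1, 0.65 in array 2 and 0.57 in array 3. Their lowest adjusted p was that of RpS21, a protein of the small subunit, at 29953, 44498 and 50415 in S284Y, against 25619.9, 28793 and 24467 in WT. The fit gave RpS21 0.63, adjusted p = 0.23. Mitochondrial ribosomal proteins (64 genes, median 0.27) stood at 0.06, 0.05 and 0.80 in arrays 1, 2 and 3, and oxidative phosphorylation genes (69 genes, median 0.24) at 0.01, 0.06 and 0.70. Both were raised in array 3 only of the 3 arrays, and the leading members, mRpL46 (0.99, adjusted p = 0.0728) and ox, a subunit of respiratory complex III (0.65, adjusted p = 0.223), did not pass.

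The opposite pattern held for cell cycle and replication genes (38 genes, median -0.37), at 0.12, 0.01 and -1.02 in arrays 1, 2 and 3. Dp, the partner of the cell-cycle regulator E2F, had 3141, 2469 and 1175 in S284Y, against 3666, 3244 and 3327 in WT (-0.7, adjusted p = 0.295), lowest in array 3. Yolk and eggshell genes (21 genes, median 0.35) were raised in array 2, at -0.03, 0.93 and 0.24, as seen in the eggshell protein gene Cp19, at 46413, 82181 and 64769 in S284Y, against 34364, 45169.5 and 39961 in WT. The fit gave Cp19 0.66, adjusted p = 0.286. Male accessory gland genes (19 genes, median 0.03) stood at -0.47, -0.44 and 1.08, and the testis list (40 genes, median 0.15) at 0.03, 0.05 and 0.39, so that array 3 was high in both. Mst84Db, a sperm-tail gene, had 4358, 4388 and 9315 in S284Y, against 2394, 2103 and 2239 in WT. The fit gave Mst84Db 1.32, adjusted p = 0.0648. Summed testis markers (5 of 5 measured, none at 0) were 9809, 9316 and 20129 in S284Y arrays 1, 2 and 3, against 8340 to 9089 in WT, and summed accessory gland markers (3 of 4) 5587, 4335 and 13997, against 5582 to 8413. Summed Malpighian tubule markers (2 of 3) were 11671, 7433 and 3263 in S284Y arrays 1, 2 and 3, against 12490 to 13860 in WT. The part of tissue content in these shifts was not tested.

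Smaller shifts without a call were seen elsewhere. Medians were 0.10 for 72 cuticle genes (-0.02, 0.47 and 0.15 in arrays 1, 2 and 3) and 0.18 for 124 odorant and taste receptors (-0.02, 0.48 and 0.14). They were 0.07 for 35 odorant-binding proteins (-0.34, 0.04 and 0.46) and 0.05 for 39 proteasome genes (0.03, 0.01 and 0.20). In array 1 the cuticle, receptor and odorant-binding medians were therefore at or below 0. The co-receptor gene Ir25a (1.52, adjusted p = 0.176), Obp56a (-1.67, adjusted p = 0.0648) and the cuticle gene Acp65Aa (1.99, adjusted p = 0.0677) had the lowest adjusted p of their lists. Signals of Acp65Aa were 616, 189.8 and 575 in S284Y, against 74.8, 129 and 77.8 in WT. Acp65Aa was high in arrays 1 and 3 and lower in array 2, and it passed in array 1 alone (2.56, adjusted p = 0.0358), as did Obp56a (-1.41, adjusted p = 0.0218). Heat shock and chaperone genes (16 genes, median -0.12) and genes known to lack introns (18 genes, median 0.03) had 0 calls each. The second count depends on the removal of sina and phyl from the list after their values were seen. With both in it, 1 of 20 genes fell, sina, and the median was -0.02. Hsf, the heat shock transcription factor, stood at 1816, 1140.4 and 1371 in S284Y, against 1869.9, 1929 and 1870.5 in WT (-0.41, adjusted p = 0.331), and the groups did not overlap. Eye markers (3 of 5) summed to 13225 to 15614 in S284Y and 14360 to 16018 in WT, and flight muscle markers (4 of 4) to 43476 to 62060 in S284Y and 41340 to 46929 in WT.

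**Figure D4:**
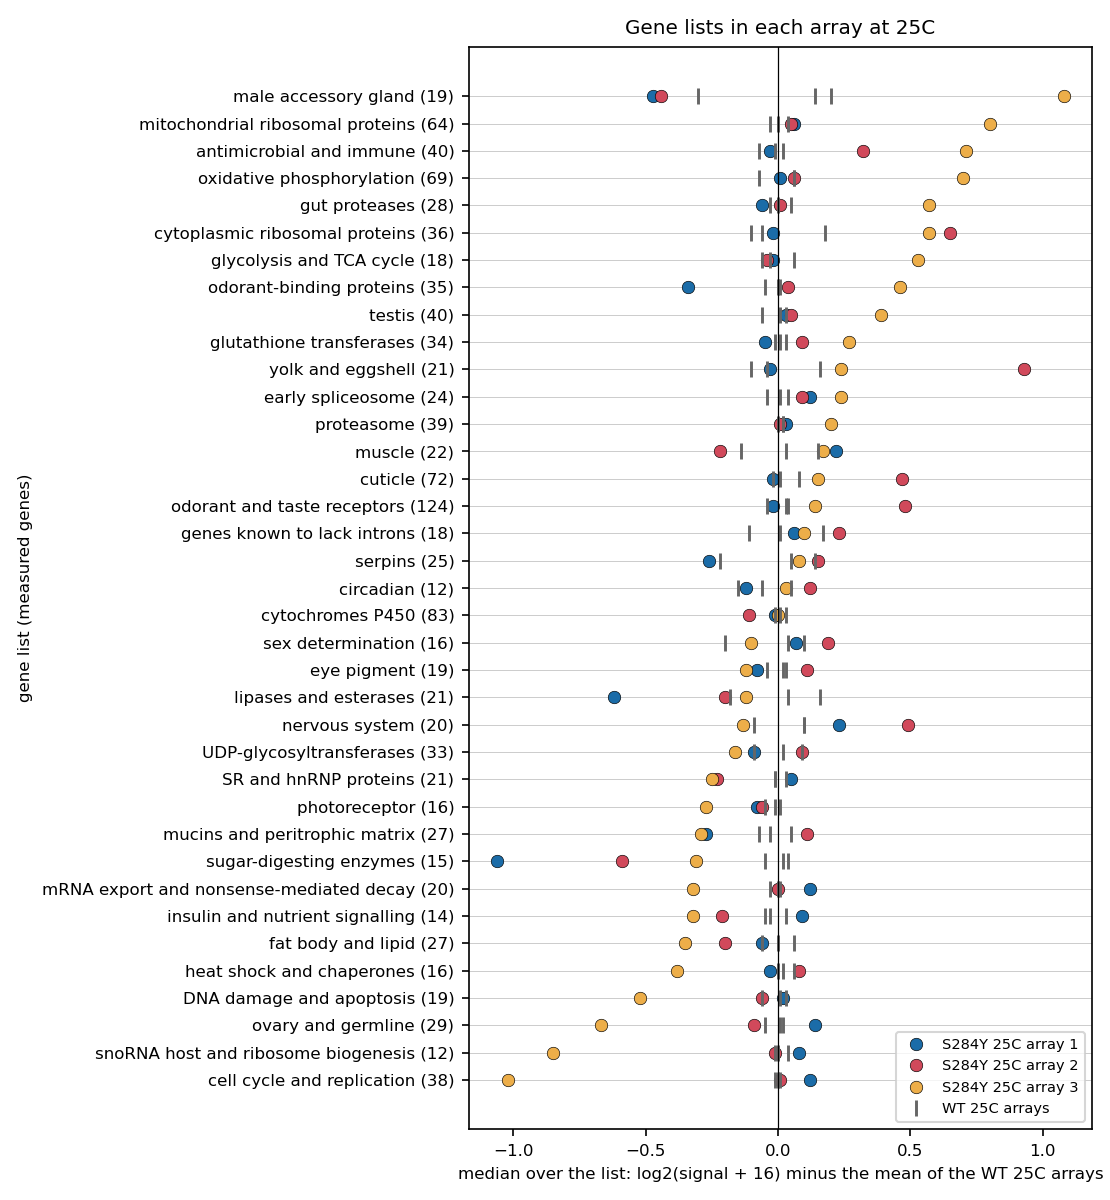
Median difference of log2(signal + 16) from the WT 25C mean over each gene list, with the number of measured genes in brackets, for S284Y arrays 1, 2 and 3 (circles) and the WT 25C arrays (ticks); lysozymes, with medians of 2.26, 3.85 and 2.80, lie off the scale and are not drawn. Array 1 is within 0.15 of 0 for most lists, array 3 ranges from -1.02 for cell cycle genes to 1.08 for male accessory gland genes, and sugar-digesting enzymes are the list that is lowest in array 1.

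To show what arrays 2 and 3 had in common, probe sets were ranked by the gap between both arrays and all other 10, a choice made on the values themselves and therefore given without a test. Both arrays lay above all others for 1194 probe sets, 16 of them by more than 2-fold, and below all others for 1250, 68 by more than 2-fold. The largest gap below was that of ana3, a centriole gene, with 71.5 and 47.2 in S284Y arrays 2 and 3, against 427.2 to 821.2 in the other 10 arrays, S284Y array 1 included at 677.6. Patronin, which caps microtubule minus ends, had 134.5 and 31.9, against 444.2 to 1026.2 in the others, and Trf, a TBP-related transcription factor, 117.8 and 93.2, against 389.4 to 773.3. In S284Y array 1, ana3, Patronin and Trf lay within the range of the WT 25C arrays or above it. Ac76E, an adenylyl cyclase, had 14.6 and 13.9 in arrays 2 and 3, and for this gene array 1, at 115.9, was also below the WT 25C arrays (192.9 to 344.7). The remaining genes of the 8 with the largest gap below were SKIP, uno, CG10898 and botv, an enzyme of heparan sulfate synthesis.

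The largest gaps above were of dim probe sets. CG11149 had 198.4 and 195.8 in arrays 2 and 3, against 13.9 to 27.8 in the others, and nerfin-1, a zinc-finger factor of the developing nervous system, 511.8 and 465, against 44.9 to 169.9. The other 6 were CG9368, CG31871, CG13021, CG46301, CG5404 and CG42331, for which array 1 read 24.8 to 152. Of the 110 called probe sets, 33 had both arrays beyond all other 10, as had 17.5% of all probe sets. For 42 of the 110 all 3 S284Y 25C arrays lay beyond the other 9, as was the case for 4.44% of all probe sets. The 110 were called on these same arrays and none overlapped with WT at 25C. A higher share among them therefore follows in part from the selection.

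At 30C, on other arrays of both genotypes, 59 of the 110 probe sets passed as well, which is 53.6% of the calls at 25C and 27.7% of the 213 calls at 30C (1.53% of all probe sets, 0.351% higher and 1.17% lower). All 59 had the same direction at both temperatures, 21 higher and 38 lower, and 103 of the 110 did so whether or not they passed. The S284Y and WT values at 30C did not overlap for 91 of the 110, against 28.1% of all probe sets. The lysozymes, Uhg1, Mur2B, Cyp12d1-d, GstE1, GstD3, GstE6, GstE8, stil, Naa80, CG4570 and Lsp2 were among the 59. GstE6, for example, had 864, 768 and 688 in S284Y, against 5486, 5739 and 5914 in WT at 30C (-2.86, adjusted p = 4.0e-05). Signals of stil were 850.0, 939 and 877 in S284Y, against 4229.5, 2673 and 4649 in WT (-2.06, adjusted p = 0.000491). Both genes were separated between the genotypes at each temperature.

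For 24 of the 110 the log2 fold change at 30C was under 0.5 in size. Signals of wts at 30C were 858, 1179.8 and 1325 in S284Y, against 966, 1209 and 888 in WT (0.12, adjusted p = 0.951). Those of mav were 1526, 1328 and 1735 in S284Y, against 1768, 1752 and 2017 in WT (-0.27, adjusted p = 0.798). For wts the groups overlapped at 30C, whereas its 25C groups did not. CG4440, lower in S284Y at 25C, had 158, 309 and 76.4 in S284Y, against 65, 59.5 and 60.5 in WT at 30C (1.16, adjusted p = 0.355), so that its genotypes lay in the opposite order. CG11666, a dim gene chosen after its values were seen, rose at 25C, with 103, 153 and 163 in S284Y, against 12, 13.4 and 23.3 in WT (2.27 ± 0.331 (SE), adjusted p = 0.00558), and had 15.3, 17.8 and 13.8 in S284Y, against 16.6, 36 and 34.9 in WT at 30C (-0.48, adjusted p = 0.715). The difference of the genotype effects between temperatures was tested by the interaction term of limma, and 0 of 13966 probe sets passed (0.0%), with a lowest adjusted p of 0.147 over all and 0.203 among the 110. At an unadjusted p under 0.05 there were 1127 (8.07%), and 41 among the 110, so none of these genes is shown to respond at 1 temperature only. Without S284Y 25C array 1, 84 probe sets passed the interaction. Of the called genes with values in the text, CG11666 (adjusted p = 0.0349), Cyp6a13 (0.0435) and eRF3 (0.0484) passed in that fit. Genes picked by the gap of arrays 2 and 3, such as ana3, are not counted here. Cyp6a13 fell by 1.13 at 25C and by 2.81 at 30C on the log2 scale.

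**Figure D5:**
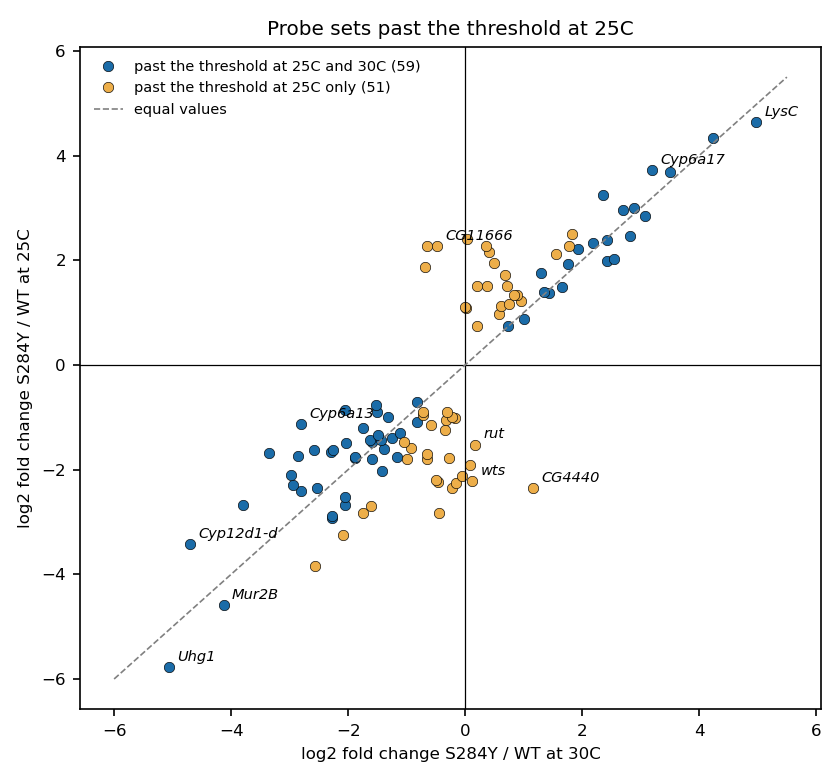
Log2 fold change of S284Y over WT at 25C (vertical) and at 30C (horizontal) for the 110 probe sets past the threshold at 25C; blue circles passed at both temperatures (59), orange circles at 25C only (51), and the dashed line marks equal values. LysC (4.64 at 25C and 4.97 at 30C) and Mur2B (-4.59 and -4.13) lie near the line, Cyp12d1-d (-3.42 and -4.71) lies off it, and wts, rut, CG11666 and CG4440 lie at or across the vertical line of no difference at 30C.

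Called genes were spread over all large chromosome arms. By its brightest probe set, 90 of 10844 genes (0.83%) passed, with 30 of 2107 on arm 3L (1.42%), 26 of 2176 on 2R (1.19%), 17 of 2720 on 3R (0.625%), 8 of 1976 on 2L (0.405%), 7 of 1763 on X (0.397%) and 1 of 57 on chromosome 4 (1.75%). Among genes ordered along an arm, 6 pairs of measured neighbours were both called: 3 pairs among LysB, LysD, LysE and LysP on 3L, the pair of Cyp6a17 and Cyp6a23 on 2R, and the pairs of CG6295 with CG17192 and of CG6283 with CG6277 on 3R. Cyp6a17 and Cyp6a23 formed the pair with opposite directions, and the other 5 pairs each shared a direction. Around U2af50 on the X chromosome, 0 of the 25 measured genes on each side passed by limma, with a lowest adjusted p of 0.0918 and a median log2 fold change of -0.06.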

How the data were processed

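Total RNA was measured on 12 Affymetrix arrays. The deposited values are probe-set signal intensities on a linear scale, and the authors' software and settings are not given in the sources used here. Trimmed means of the arrays were 1000.12 to 1000.18, so the deposited intensities had been scaled and were not normalized again; scaling cannot remove the differences of arrays 2 and 3 of S284Y at 25C. The number of arrays limits the precision.

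After 44 control probe sets were left out, log2(signal + 16) of 13966 probe sets was fitted with limma 3.58.1 in R 4.3.3. The fit had 4 group means over 12 arrays and eBayes with a trend, with Benjamini-Hochberg adjustment at 0.05. Simulated data were run through the same fit. They gave all arrays the same spread within a probe set, so the effect of arrays that stand apart was not checked. Of the 13966 probe sets, 12443 have 1 gene in the platform annotation, updated through RefSeq (Release 6 plus ISO1 MT), 327 have several and 1196 none. A gene in a list is its brightest probe set. Named genes were the 15 with the highest and 15 with the lowest change among called probe sets with 1 gene, no overlap of the groups and a brighter group whose mean reached the 40th percentile of all means, U2af50 and U2af38, up to 4 called members per list (or the lowest adjusted p where none passed), and the 8 largest gaps on each side for arrays 2 and 3; the brighter probe set of Sxl came from its list and others are said to be chosen after their values were seen. The members and lists were chosen with earlier results of these data known, and after the values were seen Acp65Aa was taken out of the accessory gland list, and sina, which had passed, and phyl out of the list of genes known to lack introns. Correlations of deviations between arrays with the same number were -0.131 to 0.062, so the numbers do not pair the arrays. Alternatives were other offsets, filters, scalings, weights, a replicate block, the 6 arrays alone and leaving out arrays.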

Additional observations from a re-analysis of the deposited data

Results flagged for a closer look

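No comparison used the added bacterial and phage control transcripts. Their median was 5.9 times the WT 25C mean in S284Y 25C array 2 and 1.88 times in S284Y 25C array 3, above the highest WT 25C array at 1.16. The part of this in the gene results was not tested.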

How the results depend on the processing

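The 25C comparison had 110 calls. The fit of the 6 arrays alone made 17 calls, and the fit with a replicate block made 78, of which 76 were among the 110. With the 6 arrays alone, fewer arrays estimate the spread, and the quieter 30C arrays no longer share in it. The standard deviation from the own group was 0.856, 0.959 and 1.085 in S284Y 25C arrays 1, 2 and 3. In the other groups it was 0.535 to 0.61. The main fit pools the spread over all groups, so its SEs may be too small for S284Y 25C. Which of these lowered the count was not tested. Array quality weights, 0.375 for S284Y 25C array 2 and 0.125 for array 3, gave 82 calls, of which 61 were among the 110. Fits without 1 array gave 48 to 885, the highest without S284Y 25C array 1, then 302 without array 3, and 53, 52 and 48 without WT 25C arrays 1, 2 and 3. The count also called at 30C was 40 to 76 in these fits, and 53 with the block. Of the genes named by the rule, 0 to 1 passed the interaction in these fits, and 0 with the block. This count leaves out the genes picked by the gap of arrays 2 and 3. CG11666 and eRF3, named outside the rule, also passed the interaction without S284Y 25C array 1 (adjusted p = 0.0349 and 0.0484). No called named gene changed direction in any of the 23 settings. For the fits that left out arrays this follows from the lack of overlap between the groups. Of 43 named calls 12 were kept in every setting in which they were measured. The 6 arrays alone lost 31 of the 43, and array quality weights lost 17. Among the 31 were Cyp6a23 (adjusted p = 0.146), GstE6 (0.128) and Naa80 (0.121), which were kept in all 12 fits without 1 array. Of the list medians, 54 comparisons over all settings moved by more than the spread and 820 did not. The fit without S284Y 25C arrays 2 and 3 together held 19 of these moves, among 38 lists. With 3 arrays against 3, an exact permutation test of 1 value cannot go below p = 0.10, so calls rest on limma's pooled spread. Signals near the added 16 give fold changes that depend on it.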

Other observations

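Pepck2, Gabat, eRF3 and rhi, called genes chosen after their values were seen, are described singly and stand for no group. Pepck2, of the phosphoenolpyruvate carboxykinase family of gluconeogenesis, had signals of 414, 349.7 and 540.1 in S284Y, against 1535, 1338 and 1568 in WT (-1.75 ± 0.236 (SE), adjusted p = 0.00322 by limma; array 1 alone -1.79, adjusted p = 0.00508). Gabat, the transaminase that degrades GABA, had 509, 850.4 and 485 in S284Y, against 1525, 1808 and 1434 in WT (-1.39, adjusted p = 0.0234; array 1 alone -1.61, adjusted p = 0.0111). The groups did not overlap for either gene. Pepck2 was kept in all 12 fits without 1 array, and for Gabat the adjusted p was 0.0974, 0.127 and 0.0938 with WT 25C array 1, 2 or 3 dropped. The translation termination factor gene eRF3 had 7866, 4114 and 4992 in S284Y, against 11459.8, 11784 and 10591 in WT (-1.05, adjusted p = 0.03; array 1 alone -0.52, adjusted p = 0.0675), and rhi, an HP1 relative that marks piRNA clusters in the ovary, 489, 405 and 469 in S284Y, against 149, 129.8 and 171 in WT (1.5, adjusted p = 0.0258; array 1 alone 1.61, adjusted p = 0.083). The call of eRF3 was kept in 2 and that of rhi in 5 of the 12 fits without 1 array. For eRF3 the adjusted p was 0.0595 with S284Y 25C array 2 dropped, 0.132, 0.135 and 0.119 with WT 25C array 1, 2 or 3 dropped, 0.0571, 0.0622 and 0.0541 with S284Y 30C array 1, 2 or 3 dropped, and 0.0604, 0.0625 and 0.0587 with WT 30C array 1, 2 or 3 dropped, and for rhi 0.0974, 0.112 and 0.0809 with WT 25C array 1, 2 or 3 dropped, 0.0516 with S284Y 30C array 1 dropped, and 0.0516, 0.0503 and 0.0514 with WT 30C array 1, 2 or 3 dropped.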
